A study of Mus musculus with 6 samples.

Results

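The genes described here are the receptor pair for glial cell line-derived neurotrophic factor (GDNF), the transcription factors described downstream of it, and other genes that mark the stem cell core of the male germ line. The 10 genes were chosen by name, with their symbols matched to the Ensembl identifiers of the count table. They are Gfra1, Ret, Etv5, Bcl6b, Id4, Lhx1, Pou3f1, Nanos2, Shisa6 and T, out of 51912 genes in the table. All 10 were found there, and 8 passed the filter on low counts. The table holds 3 wild type and 3 Bud31-vKO libraries of C57BL/6J mouse testis cells at postnatal day 4, gated for THY1 and against c-KIT, then amplified by Smart-Seq2, a method for small amounts of RNA. In the Bud31-vKO mice the gene for BUD31, a spliceosome protein, was removed by the Cre-loxP system. The labels do not give the promoter that drives Cre, the exons removed, the number of cells per library or whether each library came from its own animal, and p-values therefore reflect differences among these libraries that could be of technical origin.

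In the mouse testis GDNF comes from Sertoli and peritubular cells and binds the co-receptor GFRA1, which joins the tyrosine kinase RET on the stem cell surface. The signal runs through SRC family kinases, PI3K and AKT, and the RAS and ERK route, and it keeps the stem cells dividing without differentiating. Etv5, Bcl6b, Lhx1, Pou3f1 and T are transcription factor genes described as responding to GDNF or to ETV5 in cultured mouse spermatogonia. Id4 encodes an inhibitor of E protein transcription factors, Nanos2 an RNA-binding protein that blocks differentiation, and Shisa6 a membrane protein of the most primitive spermatogonia.

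The promoters of Etv5, Gfra1 and T are shown because Etv5 and Gfra1 lay nearer to each other over the libraries than to T. The root mean square difference of their centred log2 levels was 0.65, against 1.74 between Etv5 and T and 1.62 between Gfra1 and T. Many genes outside the set lay nearer to Etv5 or to Gfra1, and the groups separated in the ratio of Gfra1 to Etv5. Each window runs from 250 bases before to 50 bases after a RefSeq transcription start on GRCm38.p6, and capitals mark E-boxes (CANNTG, the sites of the E proteins that ID proteins hold back).
Etv5 (chr16:22439521-22439820, minus strand): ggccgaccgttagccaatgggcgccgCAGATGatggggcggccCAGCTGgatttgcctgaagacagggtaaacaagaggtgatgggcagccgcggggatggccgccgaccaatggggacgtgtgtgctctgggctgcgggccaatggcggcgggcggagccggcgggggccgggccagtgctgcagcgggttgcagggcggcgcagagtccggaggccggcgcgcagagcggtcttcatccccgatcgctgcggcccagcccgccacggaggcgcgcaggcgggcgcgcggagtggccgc
Gfra1 (chr19:58455349-58455648, minus strand): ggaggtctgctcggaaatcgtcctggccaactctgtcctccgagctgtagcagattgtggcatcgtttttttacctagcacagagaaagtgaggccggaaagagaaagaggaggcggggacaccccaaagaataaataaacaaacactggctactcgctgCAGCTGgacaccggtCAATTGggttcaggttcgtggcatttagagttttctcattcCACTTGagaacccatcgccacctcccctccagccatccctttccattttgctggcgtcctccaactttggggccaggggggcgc
T (chr17:8434173-8434472, plus strand): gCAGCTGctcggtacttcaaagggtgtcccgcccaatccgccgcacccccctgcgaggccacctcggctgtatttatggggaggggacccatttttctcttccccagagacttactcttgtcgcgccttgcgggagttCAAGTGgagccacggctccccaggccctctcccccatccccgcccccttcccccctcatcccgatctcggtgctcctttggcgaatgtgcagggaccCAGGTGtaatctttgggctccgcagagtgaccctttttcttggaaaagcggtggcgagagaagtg

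The E-box matched 2 times in the Etv5 window, 3 times in the Gfra1 window and 3 times in the T window, and it occurs in 72.3% of the 32851 RefSeq promoter windows of this length. The ETS core GGAAG, read on both strands, did not match in these Etv5 and Gfra1 windows and matched 2 times in the T window, against 71.4% of all windows with a match. The windows of Lhx1, Id4 and Nanos2 held 0 E-boxes and 2 GGAAG matches each. A second Etv5 start had 0 E-boxes and 4 GGAAG matches. The cAMP response core TGACGT matched 1 time, in the Lhx1 window, against 7.51% of all windows. No GGAAG match overlapped an E-box. These matches are descriptions of the letters only. Of the 10 genes, 6 had a promoter in the table.

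Library totals ranged from 13240704 to 18744466 reads. Wild type library 3 and Bud31-vKO library 2 stood apart, with reads on 13762 and 12464 genes against 18171 to 22300 in the other 4 libraries. The table's column names use C and T, which were read as wild type and Bud31-vKO and are not spelled out in the labels. Levels are given as CPM (read counts scaled to a common library size with TMM factors), always listed for libraries 1 to 3 of a group in order. For the deleted gene Bud31 they were 138, 96.8 and 158 CPM (wild type) and 47.2, 67.6 and 80.4 CPM (Bud31-vKO), lower in each library of the second group. The groups did not overlap for Bud31, but its log2 fold change of -1.01 (standard error 0.39) did not pass edgeR's quasi-likelihood test over all genes (unadjusted p = 0.0345, adjusted p = 0.9997), and 15.2% of its exon bases overlap Ptcd1 on the opposite strand. The sort genes Thy1 and Kit were counted at 7.28 to 30.2 CPM and 0.349 to 63.0 CPM over the 6 libraries. The germ cell genes Ddx4 and Dazl were well counted in every library, so germ cell RNA was present throughout. Stromal RNA was present too, as 7 markers (Pdgfra, Col1a1, Col1a2, Col3a1, Dcn, Lum and Tcf21) summed to 10369 to 21739 CPM in wild type and 8424 to 14658 CPM in Bud31-vKO.

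None of the 8 tested genes passed the test over all 15240 genes. Variation between libraries was large, with a common coefficient of variation of 119% in edgeR, and the deleted gene Bud31 did not pass either. Not passing therefore does not show that a level was unchanged. Their levels in Bud31-vKO differed in direction, with 4 fold changes below 0 and 4 above 0. The median log2 fold change was 0.23 over the 8 genes, with values from -0.11 to 0.81 when a library was left out, and 0.02 over all tested genes. By edgeR with Benjamini-Hochberg adjustment 0 of the 8 genes passed, as did 0% of all tested genes, with a smallest adjusted p of 0.9997. At an unadjusted p under 0.05 there was 1 of the 8, Etv5, against 2.91% of all tested genes (443 genes), or 1.82% when only lower levels in Bud31-vKO are counted. DESeq2 called 47 genes, 0.314% of those it gave an adjusted p, and limma-voom called 0, and neither called any of the 8. The groups did not overlap for 1 of the 8, again Etv5, against 11.2% of all tested genes (6.39% lower and 4.76% higher in Bud31-vKO).

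**Figure D1:**
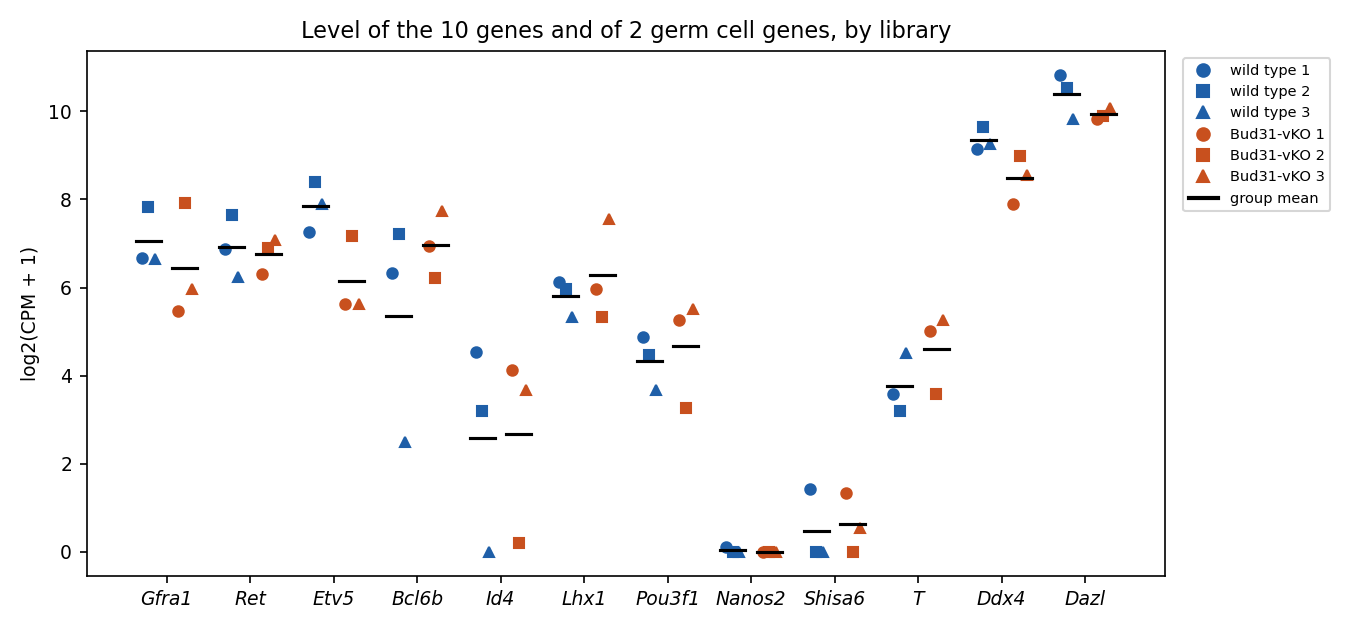
Level of the 10 genes and of Ddx4 and Dazl in each library, as log2(CPM + 1) on the vertical axis; points are libraries, with wild type in blue, Bud31-vKO in orange and a marker shape for each library number, and bars are group means on that scale. For Etv5 the 3 Bud31-vKO points lie under the 3 wild type points, Id4 is at or near 0 in wild type library 3 and Bud31-vKO library 2, and Nanos2 is at or near 0 throughout.

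The receptors were counted in all 6 libraries. Gfra1, the GDNF-binding co-receptor (ENSMUSG00000025089, chromosome 19, 58235604 to 58455909, minus strand of GRCm38), had levels of 102, 227 and 99.2 CPM (wild type) and 43.6, 239.6 and 61.3 CPM (Bud31-vKO). The highest Bud31-vKO library lay above every wild type library and the other 2 lay below them all, so the groups overlapped. Means were 143 ± 73.1 and 115 ± 108 CPM (SD, n = 3 per group). Its log2 fold change was -0.31 (standard error 0.69, 95% interval -1.92 to 1.30), which did not pass edgeR's test (adjusted p = 0.9997). Without Bud31-vKO library 2 it was -1.43 (unadjusted p = 0.0260 by edgeR), and leaving out wild type library 2 turned it to 0.19 and leaving out Bud31-vKO library 1 to 0.11. In the 4 libraries richest in detected genes, a setting added after the values had been seen, it was -1.64 (unadjusted p = 0.0184, adjusted p = 0.753 by edgeR). That choice leaves out Bud31-vKO library 2, the only Bud31-vKO library above the wild type values. The groups separate there through that choice, so this p is not support for a lower level.

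Ret, the kinase that GFRA1 engages (ENSMUSG00000030110, chromosome 6, 118151745 to 118197718, minus strand), had levels of 116, 199 and 74.6 CPM (wild type) and 78.0, 119 and 134 CPM (Bud31-vKO). Every Bud31-vKO value lay inside the wild type range. Means were 130 ± 63.1 and 110 ± 28.9 CPM (SD, n = 3 per group). Between the groups the log2 fold change was -0.24 (standard error 0.45, 95% interval -1.29 to 0.81). It was 0.20 without wild type library 2. Fewer cells of a type and less RNA per cell cannot be told apart in these bulk samples, for the receptors or for the genes that follow.

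Etv5 was the gene of the set with the largest fold change. It encodes an ETS transcription factor that is needed for stem cell renewal in the mouse testis (ENSMUSG00000013089, chromosome 16, 22381309 to 22439719, minus strand). Its levels were 152, 338 and 237 CPM (wild type) and 48.7, 143 and 48.7 CPM (Bud31-vKO). Bud31-vKO library 2 came close to wild type library 1, and the other 2 Bud31-vKO libraries were far lower. The level was 3.02-fold lower in Bud31-vKO, with means of 242 ± 92.9 and 80.2 ± 54.5 CPM (SD, n = 3 per group). The log2 fold change was -1.60 (standard error 0.54), and its 95% interval ran from -2.85 to -0.34 before any adjustment for the number of genes. It did not pass by edgeR (unadjusted p = 0.0192, adjusted p = 0.9997), and 1.21% of tested genes had a smaller p. Over the 16 other settings tried the fold change ran from -2.32 to -1.07, and in none of them did Etv5 pass over all genes. These settings reuse the same 6 libraries. Since the groups did not overlap, those that left libraries out could hardly turn the sign. In the 4 libraries richest in detected genes it was -2.32 (unadjusted p = 0.00310, adjusted p = 0.753 by edgeR). That choice leaves out Bud31-vKO library 2, the highest of its group for Etv5. Leaving out wild type library 2, Bud31-vKO library 1 or Bud31-vKO library 3 took the unadjusted edgeR p to 0.0725, 0.0652 and 0.0624. All 12 germ cell markers checked had a fold change below 0 as well, with sums of 3064 to 3804 CPM (wild type) and 1803 to 2343 CPM (Bud31-vKO), and the Etv5 level relative to Ddx4 and Dazl is given further on.

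Bcl6b, a transcriptional repressor gene (ENSMUSG00000000317, chromosome 11, 70224128 to 70229798, minus strand), had levels of 80.0, 148 and 4.66 CPM (wild type) and 122, 73.3 and 211 CPM (Bud31-vKO). Wild type library 3 was far below the other 5 libraries, which overlapped. The log2 fold change was 0.80 (standard error 0.98, 95% interval -1.48 to 3.08), against 0.26 when wild type library 3 was left out and 0.32 when Bud31-vKO library 3 was. Of the endothelial markers Pecam1, Cdh5, Kdr, Tek and Emcn, 3 of 5 were tested and all 3 lay above 0. Their sum, though not each marker, was also lowest in wild type library 3 and highest in Bud31-vKO library 3. The sums were 101, 27.6 and 0.116 CPM (wild type) and 68.3, 4.35 and 183 CPM (Bud31-vKO). Cdh5, Kdr, Tek and Emcn were at 0 in wild type library 3. Pecam1, Kdr, Tek and Emcn were at 0 in Bud31-vKO library 2, where Bcl6b was at 73.3 CPM. The part of endothelial cells in the Bcl6b level was not tested.

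Lhx1, a LIM homeobox gene (ENSMUSG00000018698, chromosome 11, 84518284 to 84525535, minus strand), had levels of 69.1, 62.0 and 39.3 CPM (wild type) and 61.3, 39.3 and 188 CPM (Bud31-vKO). Bud31-vKO library 3 stood alone at the top, and the other 5 libraries shared a narrow range. The log2 fold change of 0.76 (standard error 0.64, 95% interval -0.72 to 2.25) rested on that library and was -0.18 without it. Pou3f1, a POU domain gene (ENSMUSG00000090125, chromosome 4, 124656807 to 124660655, plus strand), had levels of 28.3, 21.0 and 11.8 CPM (wild type) and 37.1, 8.63 and 44.3 CPM (Bud31-vKO). The groups overlapped, with the lowest value in each group in the library with few genes detected. For Pou3f1 the log2 fold change was 0.56 (standard error 0.90, 95% interval -1.53 to 2.65).

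T, the gene for brachyury (ENSMUSG00000062327, chromosome 17, 8434423 to 8442496, plus strand), had levels of 10.9, 8.18 and 21.95 CPM (wild type) and 31.1, 10.9 and 37.1 CPM (Bud31-vKO). Bud31-vKO libraries 1 and 3 lay above all wild type libraries, while Bud31-vKO library 2 lay among them. Means were 13.7 ± 7.29 and 26.4 ± 13.7 CPM (SD, n = 3 per group), and the log2 fold change was 0.95 (standard error 0.95, 95% interval -1.25 to 3.14). In the 4 libraries richest in detected genes it was 1.85 (unadjusted p = 0.0290, adjusted p = 0.753 by edgeR), against an unadjusted p of 0.349 in all 6. That setting, added after the values had been seen, leaves out the highest wild type and the lowest Bud31-vKO library for T. The groups separate there through that choice, so this p is not support for a higher level.

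**Figure D2:**
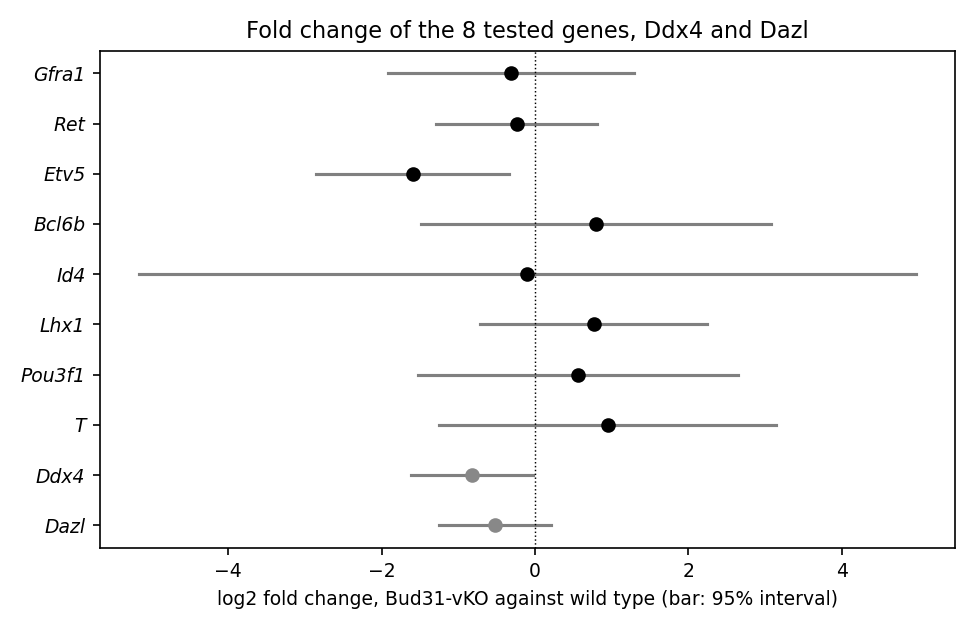
Log2 fold change of the 8 tested genes (black) and of Ddx4 and Dazl (grey), Bud31-vKO against wild type, from edgeR's quasi-likelihood fit over all genes; bars are 95% intervals not adjusted for the number of genes. Among the 8 genes the interval of Etv5 alone lies below 0, from -2.85 to -0.34, and that of Id4 is the widest.

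Id4, Nanos2 and Shisa6 were counted at low levels. Id4, the inhibitor of E proteins (ENSMUSG00000021379, chromosome 13, 48261228 to 48266026, plus strand), had 304, 149 and 0 reads in wild type libraries and 225, 2 and 159 reads in Bud31-vKO libraries. It was near or at 0 in both libraries with few genes detected. Its level was 22.2, 8.23 and 0 CPM against 16.4, 0.143 and 11.8 CPM, and the log2 fold change of -0.10 had a standard error of 2.19, so that neither a large rise nor a large fall was detectable here. Shisa6 (ENSMUSG00000053930, chromosome 11, 66211725 to 66525964, minus strand) had 23, 0 and 0 reads in wild type and 21, 0 and 6 reads in Bud31-vKO, and was not tested. Nanos2 (ENSMUSG00000051965, chromosome 7, 18987400 to 18988962, plus strand) had 1 read in wild type library 1 and 0 reads in the other 5 libraries. Taking 3 reads as the floor, a library with 0 reads could still hold up to between 0.166 and 0.222 CPM, counting error alone considered. Of the Nanos2 exon bases, 49.0% also belong to Gm45058 on the opposite strand, which had 0 reads in every library, and since the use of strand in counting is not given, the Nanos2 count is uncertain. Exon overlaps were smaller for Gfra1 (7.60%), Pou3f1 (8.57%) and Id4 (4.44% and 2.13%, with 2 genes), and the annotation has none for Ret, Etv5, Bcl6b, Lhx1, Shisa6 and T.

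Levels can be ordered between genes only per length. In CPM per kilobase of exon, the wild type order of means was Etv5 at 59.1 ± 22.6, Gfra1 at 26.0 ± 13.4, Bcl6b at 20.9 ± 19.3, Ret at 19.2 ± 9.33, Lhx1 at 13.9 ± 3.82, T at 5.91 ± 3.15, Pou3f1 at 5.29 ± 2.15 and Id4 at 2.63 ± 2.91 (SD, n = 3 each). The ranges of every pair of neighbours in that order overlapped except those of Lhx1 and T. There the lowest Lhx1 value was 9.65 and the highest T value 9.48 CPM per kilobase. Compared within each wild type library, Etv5 was above Gfra1, Ret above Lhx1, Lhx1 above T and Pou3f1 above Id4 every time. The other neighbours did not keep one order. In Bud31-vKO the order was Bcl6b at 36.4 ± 18.8, Lhx1 at 23.7 ± 19.8, Gfra1 at 21.0 ± 19.8, Etv5 at 19.5 ± 13.3, Ret at 16.3 ± 4.28, T at 11.4 ± 5.93, Pou3f1 at 7.80 ± 4.90 and Id4 at 2.45 ± 2.18 CPM per kilobase (SD, n = 3 each), and all neighbours overlapped. Etv5 was thus first in wild type by its mean and 4th in Bud31-vKO. Within each Bud31-vKO library, Bcl6b was above Lhx1, T above Pou3f1 and Pou3f1 above Id4, and the other neighbours did not keep one order.

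The germ cell reference genes had lower mean levels in Bud31-vKO than in wild type, without passing the test. Ddx4, a germ cell RNA helicase gene, had levels of 568, 802 and 613 CPM (wild type) and 239, 506 and 375 CPM (Bud31-vKO), with no overlap. Dazl, a germ cell RNA-binding protein gene, had levels of 1824, 1487 and 907 CPM (wild type) and 906, 944 and 1086 CPM (Bud31-vKO), with overlap. Averaged over both genes the reference came to 1034 ± 238 CPM against 676 ± 89.7 CPM (SD, n = 3 per group). By edgeR the unadjusted p was 0.0445 for Ddx4 and 0.138 for Dazl, and the adjusted p was 0.9997 for each. The ratio of Dazl to Ddx4 ran from 1.48 to 3.79 over the libraries, so these genes did not keep one proportion. Dazl was the higher in every library and weighs more in the reference mean.

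Relative to that mean, Etv5 was still lower in Bud31-vKO on average, but its groups overlapped. Etv5 stood at 12.7%, 29.5% and 31.2% of the mean of Ddx4 and Dazl in wild type and at 8.50%, 19.7% and 6.67% in Bud31-vKO. The difference in log2 ratio was -1.11 (exact permutation test, two-sided p = 0.2, adjusted over the 8 genes 0.4). Ret stood at 9.70%, 17.4% and 9.82% against 13.6%, 16.3% and 18.4%, a difference of 0.44 (exact permutation p = 0.3, adjusted 0.48). Gfra1 showed a difference of -0.01 (exact permutation p = 0.9, adjusted 0.9), with 33.05% in Bud31-vKO library 2 against 7.61% and 8.39% in the other 2 Bud31-vKO libraries. Its sign turned with Ddx4 alone as the reference (0.27) and without wild type library 2 (0.29), Bud31-vKO library 1 (0.36) or Bud31-vKO library 3 (0.29).

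The other 5 tested genes had higher means relative to the germ cell reference in Bud31-vKO. Lhx1 was steady in wild type at 5.78%, 5.42% and 5.17% of the reference, and reached 10.7%, 5.42% and 25.8% in Bud31-vKO, a log2 difference of 1.07. T stood at 0.914%, 0.714% and 2.89% against 5.43%, 1.51% and 5.08%, a log2 difference of 1.44. Bcl6b stood at 6.69%, 12.97% and 0.613% against 21.2%, 10.1% and 28.9%, a log2 difference of 2.20, which was 0.98 without wild type library 3 and 3.05 without wild type library 2. Pou3f1 differed by 0.93 and Id4 by 0.68 on the log2 scale. None of the 8 genes separated the groups, against 17.0% of all tested genes that did on this scale (15.7% higher in Bud31-vKO). The exact permutation p was 0.2 for Lhx1, T and Bcl6b, 0.4 for Pou3f1 and 0.6 for Id4 (adjusted 0.4, 0.533 and 0.686), and 3 libraries against 3 cannot go below 0.1.

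When the counts of Ddx4 and Dazl took the place of library size in edgeR, the median log2 fold change of all genes moved from 0.02 to 0.63. On that scale 7 of the 8 genes lay above 0 with a median of 1.03, and Etv5 lay below it at -1.07 (unadjusted p = 0.0871, adjusted p = 0.821). Lhx1 was at 1.36, T at 1.41 and Bcl6b at 1.57, each to be read against that shift of all genes. No gene passed on that scale by edgeR, and 957 had an unadjusted p under 0.05. The deleted gene Bud31 was at -0.51 there (unadjusted p = 0.310 by edgeR), against -1.01 with TMM scaling.

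**Figure D3:**
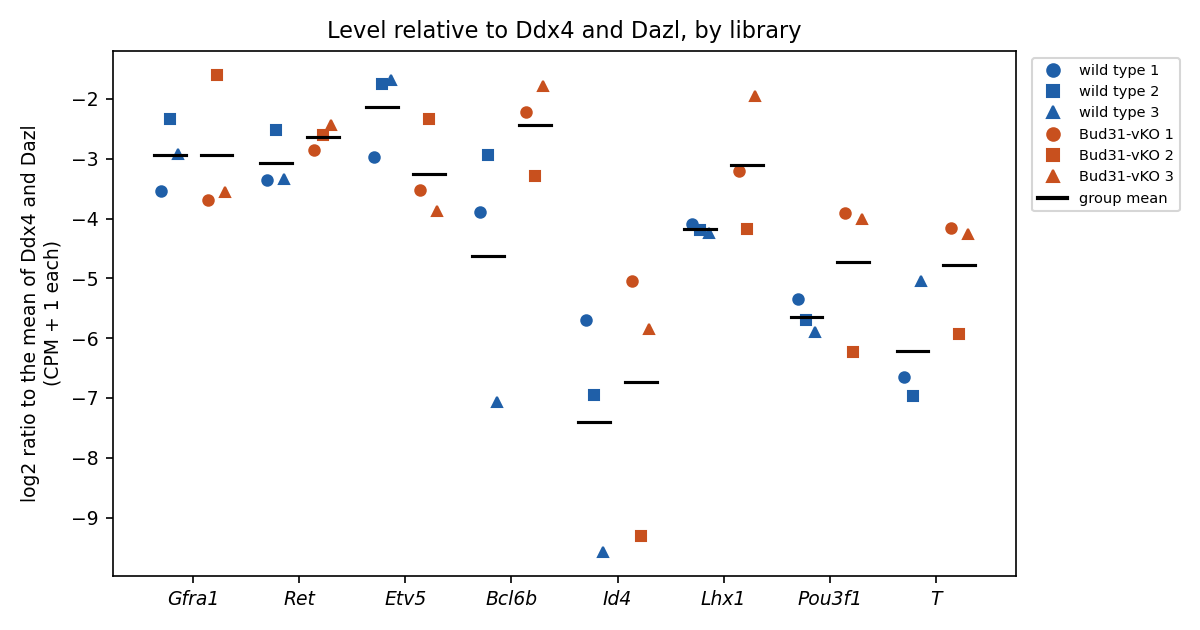
Level of each tested gene relative to the mean of Ddx4 and Dazl in each library, as a log2 ratio with 1 CPM added to both on the vertical axis; bars are group means. Groups overlap for all 8 genes, and the mean is lower in Bud31-vKO for Etv5 and nearly equal for Gfra1.

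Ratios between the genes of the set depend little on how libraries are scaled, and these were added after the values had been seen. Of 28 pairs among the 8 tested genes, the groups separated for 2, and Etv5 was in both. A share of 0.1 of all label arrangements separates 3 libraries from 3. The count of 2 in 28 is not above that share, so it is not a result about Etv5. Reads on Ret were 0.762, 0.588 and 0.315 times those on Etv5 in wild type and 1.60, 0.828 and 2.75 times in Bud31-vKO. Each Bud31-vKO ratio was above each wild type ratio, with a log2 difference of 1.55. Reads on Gfra1 were 0.668, 0.672 and 0.419 times those on Etv5 in wild type and 0.895, 1.67 and 1.26 times in Bud31-vKO, a log2 difference of 1.10. The exact permutation p was 0.1 for each, the smallest that 3 libraries against 3 allow, and 0.8 when adjusted over the 28 pairs. With each library left out in turn, the Etv5 to Ret difference ran from -1.99 to -1.13 on the log2 scale. The Etv5 to Gfra1 difference ran from -1.33 to -0.88. As the groups did not overlap for these ratios, leaving out a library could not turn either sign. In the 4 libraries richest in detected genes the Etv5 to Gfra1 difference was -0.66.

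**Figure D4:**
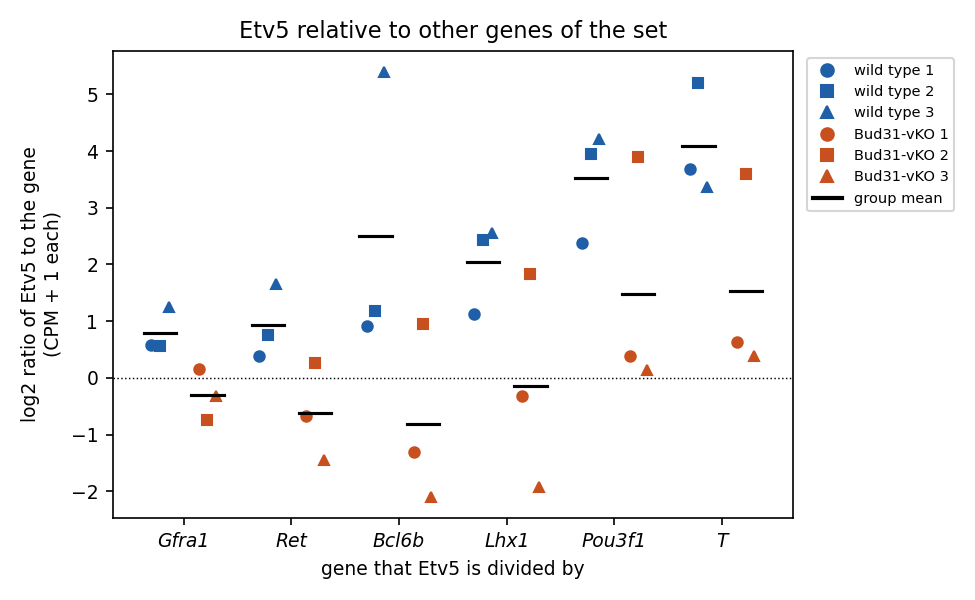
Log2 ratio of Etv5 to 6 other genes of the set in each library, with 1 CPM added to both; bars are group means, and Id4, with 0 reads in a library, is left out. All 3 wild type points lie above all 3 Bud31-vKO points for Gfra1 and for Ret, and the groups overlap for Bcl6b, Lhx1, Pou3f1 and T.

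The genes of the set did not share one pattern over the libraries. Likeness was taken as the root mean square difference between centred log2(CPM + 1) values over the 6 libraries. Lhx1 and Pou3f1 were the closest pair at 0.47, followed by Gfra1 and Etv5 at 0.65, Gfra1 and Ret at 0.72 and Ret and Lhx1 at 0.73. The farthest pair was Etv5 and Id4 at 2.47. Among 8681 other well counted genes, those nearest to Etv5 were Sdc1 (0.19), Mvd (0.20) and Colec12 (0.22), with 58 genes within 0.5. Those nearest to Gfra1 were Entpd6 (0.18), Wdr3 (0.19) and Nusap1 (0.21), and those nearest to Ret were Tbp (0.12), Gtf2f1 (0.14) and Ppp6r3 (0.15). Within 0.5 lay 175 genes for Gfra1 and 1069 for Ret, which itself varied little (SD 0.52), so nearness to Ret was common. Gtf2ird1 (0.30), Limd1 (0.31) and Uevld (0.32) were nearest to Bcl6b, with 26 genes within 0.5. Rilpl1 (0.19), Mxi1 (0.25) and Zfp518a (0.26) were nearest to Lhx1, with 124.

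Ligands and receptors of the GDNF family outside the set varied in level. Ncam1, a cell adhesion molecule that can also serve as a GDNF receptor with GFRA1, was at 41.6, 31.0 and 27.7 CPM (wild type) and 23.9, 46.4 and 40.5 CPM (Bud31-vKO), with overlap, and is named after its values were seen. Gdnf itself was at 3.79, 0 and 0 CPM (wild type) and 9.28, 0 and 7.02 CPM (Bud31-vKO). Of 10 such genes 8 were tested, 0 passed in either direction, 6 had a fold change below 0 and the median was -0.71, or 0.11 without wild type library 2. Gfra4, the persephin co-receptor, was at 25.3, 14.0 and 23.6 CPM against 1.17, 7.92 and 1.55 CPM, with no overlap and a log2 fold change of -2.56 (standard error 1.30, unadjusted p = 0.0851 by edgeR, not past the threshold). Gfra2, the neurturin co-receptor, was at 14.6, 34.3 and 31.4 CPM against 6.65, 0 and 0 CPM, again with no overlap. Sdc3, a heparan sulphate proteoglycan that binds GDNF, had a log2 fold change of -0.97.

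The genes that carry the signal inward, 32 of 32 tested, had a median log2 fold change of -0.06, with 20 below 0 and 12 above, and of 0.56 with Ddx4 and Dazl counts as library size. By edgeR 0 passed in either direction, and 7 of the 32 did not overlap between groups (4 lower and 3 higher in Bud31-vKO), against 11.2% of all tested genes (6.39% lower and 4.76% higher). The adaptor gene Gab1 was at 37.4, 78.2 and 58.6 CPM (wild type) and 27.2, 31.5 and 20.7 CPM (Bud31-vKO). The adaptor gene Frs2, which links receptor kinases to ERK, was higher in each Bud31-vKO library, at 35.8, 59.9 and 37.1 CPM against 24.1, 24.6 and 10.2 CPM. The unadjusted p was 0.0886 for Gab1 and 0.138 for Frs2 by edgeR.

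Genes of ERK feedback and the other ETS factors, 9 of 9 tested, had a median of -0.28 (0.21 with Ddx4 and Dazl counts as library size), with 7 below 0 and 0 called. Spry2, a feedback inhibitor of receptor kinases, was 1 of the 2 above 0, at 4.08, 6.57 and 3.96 CPM (wild type) and 23.8, 17.1 and 16.3 CPM (Bud31-vKO), with no overlap and a log2 fold change of 1.97 (standard error 1.10, unadjusted p = 0.113 by edgeR). Spry1 had -0.28 and Spred2 -0.58. The ETS gene Etv4, a close relative of Etv5 named after its values were seen, was at 58.8, 84.1 and 29.2 CPM against 49.0, 48.5 and 66.1 CPM, a log2 fold change of -0.07 with a standard error of 0.54. Of 7 other genes described downstream of GDNF or ETV5, 0 passed and 4 lay below 0 (median -0.22, or 0.39 with Ddx4 and Dazl counts as library size), with 0.19 for Egr2, -0.72 for Fos and -0.22 for Ccnd2. A further list of 14 genes held genes of undifferentiated spermatogonia together with Kit and Stra8, which mark differentiating ones. Of these 10 were tested, 0 passed and 8 lay below 0, among them Kit at -1.26 and Stra8 at -0.96. The median of the 10 was -0.83, or -0.12 with Ddx4 and Dazl counts as library size, -0.19 without wild type library 1 and -0.24 without wild type library 2. Sall4 was at -0.61 and Taf4b at -0.81, and they were at -0.09 and -0.15 with Ddx4 and Dazl counts as library size. Zbtb16 was at -1.45, and at -0.17 without wild type library 3.

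Id1, Id2 and Id3, relatives of Id4, had higher mean levels in Bud31-vKO than in wild type, though not past the test over all genes. ID proteins lack a DNA-binding part and hold E proteins such as TCF3 and TCF12 away from E-boxes. Id1 had levels of 146, 322 and 113 CPM (wild type) and 453, 811 and 538 CPM (Bud31-vKO). Id2 had levels of 98.6, 122 and 145 CPM against 208, 218 and 263 CPM, and Id3 of 360.3, 831 and 227 CPM against 816, 1605 and 1043 CPM. For Id1 and Id2 the lowest Bud31-vKO value exceeded the highest wild type value, and Id3 overlapped only between wild type library 2 and Bud31-vKO library 1. The log2 fold changes were 1.63 (standard error 0.46) for Id1, 0.91 (0.30) for Id2 and 1.29 (0.51) for Id3.

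None of these 3 passed over all genes by edgeR (adjusted p = 0.9997 for each). Before adjustment p by edgeR came to 0.00805 for Id1, 0.0171 for Id2 and 0.0369 for Id3. Of all 15240 tested genes, 165 were higher in Bud31-vKO with an unadjusted p under 0.05. In 4.76% the groups did not overlap and Bud31-vKO was higher. The list was chosen with earlier results of these data known, so its counts are not a test of the ID genes. The fold changes over the 16 other settings were 1.09 to 2.26 (Id1), 0.78 to 1.43 (Id2) and 0.65 to 1.97 (Id3). None passed in any of them (smallest adjusted p 0.105, for Id1 with DESeq2). These settings reuse the same 6 libraries. For Id1 and Id2, whose groups did not overlap, those that left libraries out could hardly turn the sign. The low ends for Id1 and Id3 came from the 4 libraries richest in detected genes (unadjusted p = 0.0495 and 0.198 by edgeR). Tcf3 and Tcf12 had -0.30 and 0.48, which makes 4 of 5 genes above 0 in the list with a median of 0.91. ID genes are used by many cell types. Beside them, 6 of 6 T and NK cell markers lay above 0, with sums of 8.68 to 85.8 CPM (wild type) and 74.3 to 518 CPM (Bud31-vKO). Of 10 Sertoli cell markers 8 were tested and 7 lay above 0. Sertoli sums were 262, 121 and 253 CPM (wild type) and 860, 102 and 256 CPM (Bud31-vKO). Bud31-vKO library 1 alone lay above the wild type range. The tested endothelial (3 of 3), erythroid (3 of 3) and Leydig (2 of 2, from a list of 6) markers lay above 0 too. Other cell types went the other way or were split. Below 0 lay 5 of 7 stromal markers, 2 of 4 tested macrophage markers and 2 of 4 tested peritubular myoid markers. None of the T and NK or Sertoli markers was at 0 throughout a group. The part of these cells in the ID levels was not tested.

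**Figure D5:**
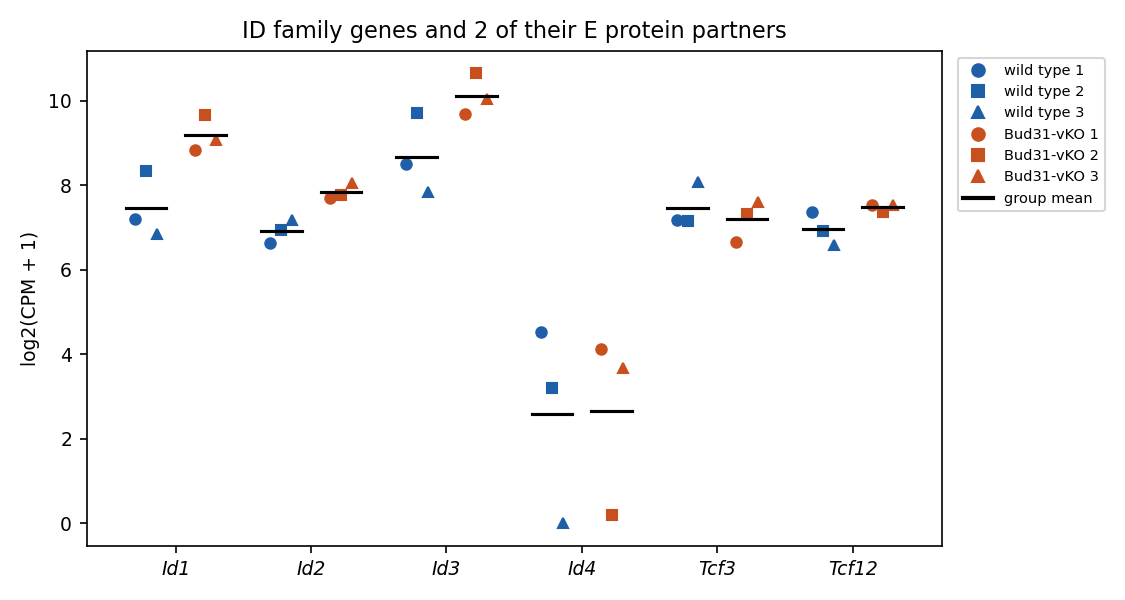
Level of the 4 ID family genes and of Tcf3 and Tcf12 in each library, as log2(CPM + 1); bars are group means. The Bud31-vKO points lie above all wild type points for Id1 and Id2, overlap at a single pair of libraries for Id3, and show no such order for Id4.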

How the data were processed

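The deposited values are whole-number counts of reads for each Ensembl gene, unscaled, since the column totals differ. The submitters' processing notes name bcl2fastq and mm10. For the aligner, counting tool, annotation release and use of strand, no source used here gives a name. Symbols, coordinates and exon lengths were taken from the GENCODE M21 annotation of GRCm38 (mm10), where 51633 of 51912 identifiers matched, and promoters from RefSeq on GRCm38.p6.

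After filterByExpr (edgeR 4.0.16, counts of 10 per gene and 15 in total as minimums) 15240 genes were left, with TMM scaling. Genotypes entered a quasi-likelihood F test with no covariate, and p-values were adjusted by Benjamini-Hochberg over all tested genes at 0.05. Standard errors were derived from the F statistic. Ratios used CPM with 1 CPM added and an exact two-sided permutation test. After the values were seen this test was kept to the 8 genes past the filter, because the ratio of Nanos2, with 1 read, reflects only its denominator, and p was adjusted over those 8. Alternatives covered scaling, filters, DESeq2 1.42.0, limma-voom (limma 3.58.1), a block for the library number, each library left out, other reference genes and pseudocounts. The edgeR fit was run on simulated counts, where recovery of known changes was required only at a variation between libraries far below that of these data. R 4.3.3, Python 3.11.15 and matplotlib 3.10.9 were used.

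The members and lists were chosen with earlier results of these data known. Named from each list were the 3 tested genes of mean log2 CPM 2 or more with the smallest unadjusted p, of which 1 is not reported here. Nearest genes, of mean log2 CPM 4 or more, were sought for members of mean log2 CPM 5 or more. Same-numbered libraries were not taken as pairs.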

Additional observations from a re-analysis of the deposited data

How the results depend on the processing

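For the 8 tested genes 0 passed over all genes in every setting run. Over all genes the count of 0 became 47 with DESeq2 and 7 with no filter on low counts, and the cause was not tested. Relative to Ddx4 and Dazl 0 of the 8 passed throughout, in a design whose exact test cannot reach 0.05. With the counts of Ddx4 and Dazl as library size, signs turned for Gfra1 (0.25), Ret (0.39), Id4 (0.81), Dazl (0.12), Spry1 (0.20) and Ccnd2 (0.31), a scale on which all genes shift by construction. With limma-voom Id4 was 0.93. Keeping the 4 libraries richest in detected genes, a choice made after seeing the data, gave Spred2 0.24 and Ccnd2 0.11. The Gfra1 log2 ratio difference was 0.27 with Ddx4 alone, 0.16 with the summed germ cell markers and 0.019 with 5 CPM added. With each library left out in turn, log2 fold changes ran from -1.43 to 0.19 for Gfra1, from -0.49 to 0.20 for Ret, from -0.76 to 1.19 for Id4, from -0.18 to 1.15 for Lhx1, from -0.48 to 0.66 for Thy1, from -1.66 to 0.13 for Sdc3, from -0.64 to 0.054 for Spry1, from -0.16 to 0.45 for Egr2, from -1.14 to 0.061 for Fos and from -0.56 to 0.0062 for Ccnd2, and log2 ratio differences from -0.69 to 0.36 for Gfra1 and from -0.41 to 1.97 for Id4. A block for the library number gave -1.72 for Etv5 (unadjusted p = 0.00308, adjusted p = 1 by edgeR) and 0 calls. Deviations of same-numbered libraries had Pearson's r across genes of 0.18, 0.08 and -0.04. Libraries 1 and 2 of each group correlated best with their own number, and library 3 of neither group did. Whether same-numbered libraries share a batch was not tested. Low counts kept Shisa6 and Nanos2 out of the test. Library totals do not order the Id4 counts, since wild type library 3, with 17131113 reads in all, had 0 reads on Id4 and wild type library 1, with 13577015, had 304.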
